A study of Homo sapiens with 60 samples.

Results

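The insulin-like growth factor (IGF) and insulin receptor axis was followed here through 10 genes: the receptors IGF1R, INSR and IGF2R, the adaptor IRS1, and the secreted binding proteins IGFBP2, IGFBP3, IGFBP4, IGFBP5, IGFBP6 and IGFBP7. The genes were taken by name from the 19712 genes measured, and all 10 were listed in both deposited tables. Messenger RNA was sequenced in 4 EGFR-mutant lung adenocarcinoma cell lines, PC9, HCC827, H1975 and HCC2935, to ask how cells that survive the EGFR inhibitor osimertinib differ from untreated cells. Each line was sampled in 5 arms with 3 biological replicates per arm, which gave 20 groups and 60 libraries. In the DMSO arm, parental cells were kept for 21 days without drug and then given vehicle for 24 h. In the acute arm, parental cells kept in the same way were given osimertinib at 500 nM for 24 h. Drug-tolerant persisters (DTP) were the cells left after 21 days at 500 nM. Persisters were also harvested after 24 h in drug-free medium (short washout) or after a longer time without drug (long washout) of 3 days in H1975, 4 days in HCC827, 7 days in PC9 and 10 days in HCC2935. The study set the long washout by the return of proliferation, but in HCC827 and H1975 0 of 10 proliferation genes were called higher in that arm than in persisters. In both of these lines 0% of all genes tested were called higher in that comparison. All arms were grown in medium with fetal serum, a source of growth factors, and each is a single established line.

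IGF1 and IGF2 bind IGF1R, a receptor tyrosine kinase, and insulin and IGF2 bind the closely related insulin receptor INSR. Both receptors phosphorylate the docking adaptor IRS1, which recruits phosphatidylinositol 3-kinase and so turns on AKT, and active AKT holds the FOXO transcription factors out of the nucleus. IGF2R has no kinase: it takes IGF2 to the lysosome and also carries mannose 6-phosphate-tagged lysosomal enzymes. The IGFBPs bind IGFs outside the cell and can withhold them from the receptor or release them when proteases cut the binding protein, while IGFBP7 binds IGFs only weakly. In EGFR-mutant lung cancer the axis is known as a parallel route to AKT that does not need EGFR.

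Some members moved in the same direction in all lines tested, with sizes that differed among lines, and others differed in direction. INSR, IGF2R and IGFBP5 were higher in persisters than in DMSO cells in 4 of 4 lines, IGFBP7 was higher in the 3 lines where it could be tested, and IGF1R passed the test in none. The IGFBP5 call in HCC827 was tied to the low-count filter, as given below. IRS1 fell in PC9, H1975 and HCC2935 and not in HCC827. IGFBP2 rose in HCC827 and fell in the other 3 lines. After 24 h without drug no member passed the test in any line, and after the long washout members were called as different from persisters in PC9 and HCC2935 and in neither of the other lines.

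The promoters of 4 members are shown because these genes carry the receptor rise seen in every line (INSR, IGF2R), the largest persister rise (IGFBP5) and the largest acute difference between lines (IGFBP4). Each run is the 250 bases before the RefSeq start on GRCh38.p14, read 5′ to 3′ on the gene's own strand, with matches to the motifs named here in capitals. The INSR window is chr19:7294415-7294664 on the minus strand and the IGF2R window is chr6:159968832-159969081 on the plus strand. The IGFBP4 window is chr17:40443200-40443449 on the plus strand and the IGFBP5 window is chr2:216695550-216695799 on the minus strand. RefSeq windows were matched for 9 of the 10 members, and IGFBP7 was the one without.

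INSR: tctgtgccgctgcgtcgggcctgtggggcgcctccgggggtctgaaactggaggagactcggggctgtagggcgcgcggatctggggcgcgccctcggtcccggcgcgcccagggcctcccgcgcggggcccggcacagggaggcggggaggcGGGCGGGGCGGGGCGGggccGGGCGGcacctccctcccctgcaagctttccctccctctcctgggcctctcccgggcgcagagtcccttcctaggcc
IGF2R: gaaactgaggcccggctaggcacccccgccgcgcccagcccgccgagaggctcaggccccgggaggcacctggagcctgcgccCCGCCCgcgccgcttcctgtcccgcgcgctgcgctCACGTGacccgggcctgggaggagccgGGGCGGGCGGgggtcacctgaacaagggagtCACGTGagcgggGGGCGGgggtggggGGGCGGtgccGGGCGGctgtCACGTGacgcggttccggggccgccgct
IGFBP4: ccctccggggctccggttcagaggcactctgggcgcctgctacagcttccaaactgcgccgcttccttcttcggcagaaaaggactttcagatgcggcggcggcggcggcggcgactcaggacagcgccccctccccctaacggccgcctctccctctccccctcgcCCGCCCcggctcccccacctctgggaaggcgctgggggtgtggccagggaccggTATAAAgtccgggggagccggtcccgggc
IGFBP5: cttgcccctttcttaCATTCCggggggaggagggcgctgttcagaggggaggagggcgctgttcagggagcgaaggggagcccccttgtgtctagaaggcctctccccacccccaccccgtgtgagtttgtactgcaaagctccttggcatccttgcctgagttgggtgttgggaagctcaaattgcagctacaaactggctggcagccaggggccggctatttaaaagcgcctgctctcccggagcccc

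Both strands were searched for the GC box GGGCGG, the palindromic E-box CACGTG, the TATA box TATAAA, the TEAD element GGAATG, the FOXO element GTAAACA and the AP-1 element TGANTCA. INSR held 4 GC boxes that partly overlap, and IGF2R held 6 GC boxes together with 3 E-boxes. At least 1 GC box stood in 42.64% of all 35116 windows of this length, at least 3 in 13.877%, at least 1 E-box in 6.34% and at least 3 E-boxes in 0.08%, which was 28 windows. IGFBP4 held 1 TATA box (10.72% of windows had at least 1) and 1 GC box. IGFBP5 held 1 TEAD element (11.89% of windows) and no GC box. None of the 4 windows held the FOXO element (2.98% of windows) or the AP-1 element (6.57%). These matches describe the letters of the windows and say nothing about binding, which was not measured.

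Every gene is placed on GRCh38 by GENCODE release 29. The receptors lie at chr15:98648539-98964530 (IGF1R, plus strand), chr19:7112255-7294034 (INSR, minus strand) and chr6:159969099-160113507 (IGF2R, plus strand), and IRS1 lies at chr2:226731317-226799759 on the minus strand. IGFBP2 (chr2:216632828-216664436, plus strand) and IGFBP5 (chr2:216672105-216695525, minus strand) point towards each other with 7668 bases between them. The other binding protein genes lie at chr7:45912245-45921874 (IGFBP3, minus strand), chr17:40443461-40457731 (IGFBP4, plus strand), chr12:53097436-53102345 (IGFBP6, plus strand) and chr4:57030773-57110385 (IGFBP7, minus strand). Genes on the opposite strand overlap IGF1R (2 genes), IGF2R (1), IGFBP5 (1) and IGFBP7 (3), and the sources used here do not say whether the quantification used strand.

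Libraries held 17700000 to 49100000 estimated counts, with medians of 40200000 in PC9, 19700000 in HCC827, 42900000 in H1975 and 21600000 in HCC2935. Levels across libraries are given as CPM, counts scaled to a common library size, after TMM normalization of all 60 libraries, in the order of replicates 1 to 3. Differences come from an edgeR quasi-likelihood fit of the 15 libraries of a line, are given as log2 fold change ± SE, and were called at an adjusted p under 0.05 over all genes of the line. The drug's mark was present in the labelled arms: of 11 genes that depend on ERK signalling, 10, 9, 9 and 11 were lower in the acute arm of PC9, HCC827, H1975 and HCC2935, and all 10 proliferation genes were lower in the acute and DTP arms of every line. Of all genes tested, 31.7%, 20.2%, 23.8% and 22.2% were lower in the acute arm and 33.5%, 20.4%, 25.7% and 25.8% in the DTP arm, in the same order. The keratins KRT8, KRT18 and KRT19 were abundant in every line. The other epithelial markers listed, CDH1 and EPCAM, varied more. In H1975 libraries CDH1 ranged from 1.28 to 134 TPM and EPCAM from 18.1 to 272 TPM. In HCC827 they ranged from 40.3 to 456 TPM and from 77.0 to 508 TPM. Both stayed at or above 87.2 TPM in PC9 and 338.8 TPM in HCC2935. The lung marker SFTPB was at or below 2.73 TPM in every library, and NAPSA ranged from 7.66 to 421 TPM in HCC2935, from 12.7 to 184 TPM in HCC827, and was at or below 6.25 TPM in H1975 and 3.90 TPM in PC9. The sum of the lung markers listed was 204 to 245 TPM under DMSO and 18.0 to 24.6 TPM in persisters of HCC2935. In bulk RNA, fewer cells of a kind and less RNA per cell cannot be told apart.

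Under DMSO, the lines already differed in this axis. Of the 10 members, 9 differed among the 4 lines (edgeR F test over 60 libraries), against 89.3% of all genes tested. The member that did not was IGF1R (edgeR adjusted p = 0.115). Between pairs of lines, 8 members differed between HCC827 and PC9 (62.3% of all genes did), 8 between H1975 and PC9 (63.1%), 8 between HCC2935 and PC9 (67%) and 8 between H1975 and HCC827 (56.5%). HCC2935 differed from HCC827 in 5 members (64.3% of all genes) and from H1975 in 5 (65.3%). These shares lie on both sides of those for all genes and say nothing particular of the axis.

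INSR under DMSO stood at 28.6, 44.7 and 37.6 CPM in H1975. The HCC2935 libraries had 16.4, 15.1 and 19.5 CPM, those of HCC827 16.2, 9.18 and 14.6 CPM and those of PC9 11.2, 17.2 and 9.56 CPM. H1975 was above every other line, and the other 3 lines were not told apart in pairs. IGF2R ranked HCC2935, H1975, HCC827 and PC9 from high to low, and of neighbours in that order, only the first and second were not told apart (edgeR adjusted p = 0.204). IRS1 ranked HCC2935, HCC827, H1975 and PC9, where HCC2935 and HCC827 were not told apart (0.216, edgeR adjusted p) and neither were HCC827 and H1975 (0.0524, edgeR adjusted p). For IGF1R, the single pair past the threshold was HCC2935 below PC9 by 0.90 on the log2 scale (edgeR adjusted p = 0.0419), although the test over all 4 lines was not passed.

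The binding proteins ranked the lines differently. IGFBP3, the main carrier of IGFs in blood, was highest in PC9 and lowest in H1975, and HCC827 and HCC2935 between them were not told apart (edgeR adjusted p = 0.54). IGFBP4 ranked HCC2935, PC9, H1975 and HCC827, and every step in that order passed the test. IGFBP6, which prefers IGF2, ranked PC9, H1975, HCC827 and HCC2935, again with every step past the threshold. IGFBP2 was low in HCC827, and no pair of the other 3 lines was told apart. IGFBP5 was well above the rest in PC9, and HCC2935 was told apart neither from H1975 (edgeR adjusted p = 0.121) nor from HCC827 (0.29). IGFBP7 was higher in HCC2935 and H1975, which were not told apart (0.202, edgeR adjusted p), than in HCC827, and PC9 was lowest.

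Per transcript length, IGF2R was the most abundant receptor mRNA in every line under DMSO, at 29.2, 41.7, 56.2 and 69.8 TPM in PC9, HCC827, H1975 and HCC2935. INSR stood at 2.27, 2.68, 7.97 and 4.17 TPM in the same order of lines and IGF1R at 5.65, 6.20, 5.13 and 4.14 TPM. Length bears on the IGF1R value in particular. The ratio of count to TPM implied a mean transcript of 1340 bases for IGF1R, against 11726 to 12235 bases for its coding transcripts. Its values thus rest largely on short annotated transcripts. The TPM, CPM and every test of IGF1R given here may not stand for the receptor's coding mRNA. For INSR the implied length was 6110 bases and for IGF2R 8470 bases, beside coding transcripts of 4721 to 8954 and 9084 to 14044 bases.

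**Figure D1:**
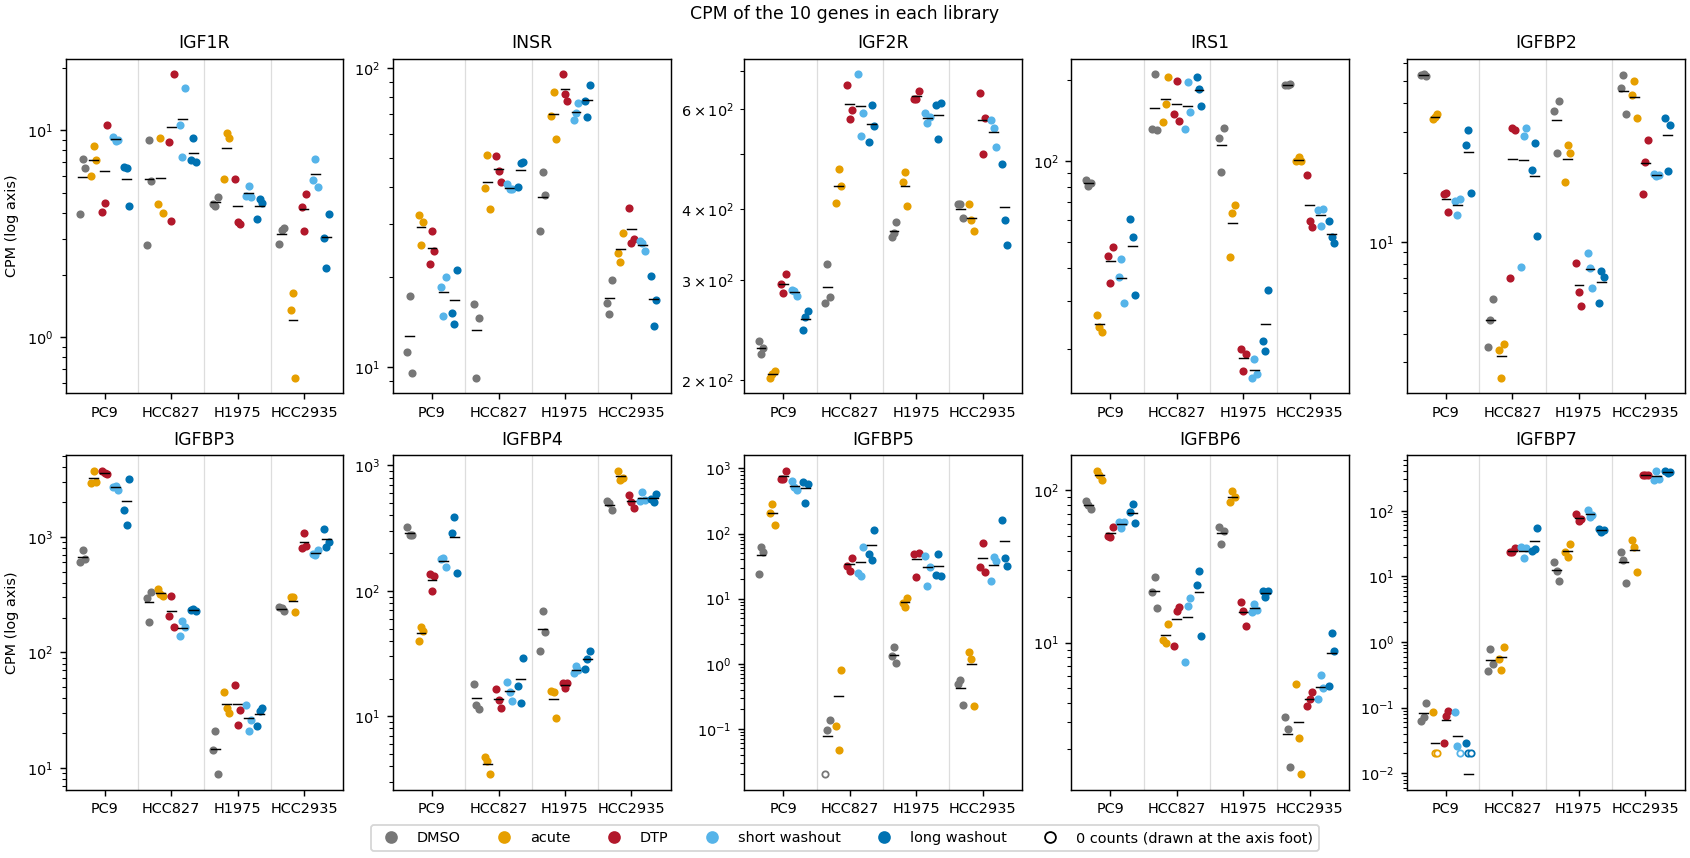
Level of each of the 10 genes (CPM on a log axis) in every library by line and arm. Each point is 1 library, the black bar is the mean of 3 replicates, and open circles at the foot of the axis are libraries with 0 counts. On the log axis IGFBP5 and IGFBP7 span the widest range, from 0 to 926 CPM and from 0 to 408 CPM. In CPM units IGFBP3 spans more, from 8.79 to 3731 CPM. IGF1R stays between 0.636 and 18.7 CPM in all 60 libraries.

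The first question was what 24 h of osimertinib did. PC9 had 4 members higher and 4 lower of 9 tested, where 34.5% of all genes tested were higher and 31.7% lower. In HCC827, 2 were higher and 1 was lower of 10 (18.7% and 20.2% of all genes). H1975 had 7 higher and 3 lower (27.8% and 23.8% of all genes). In HCC2935, 2 were higher and 2 lower (24.9% and 22.2% of all genes). The median log2 fold change of the members tested was 0.29, 0.12, 0.85 and 0.27 in PC9, HCC827, H1975 and HCC2935, beside 0.07, 0.02, 0.10 and 0.07 over all genes.

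INSR rose within 24 h in 4 of 4 lines. In PC9 it went from 11.2, 17.2 and 9.56 CPM under DMSO to 32.3, 25.6 and 30.5 CPM, and the groups did not overlap. In HCC827 the acute libraries had 39.8, 51.1 and 33.9 CPM, again with no overlap. H1975 reached 69.1, 83.2 and 57.8 CPM and HCC2935 24, 22.5 and 28 CPM, also above all of their DMSO libraries. The change was 1.23 ± 0.21 (2.34-fold, edgeR adjusted p = 0.000138) in PC9 and 1.62 ± 0.19 (3.09-fold, edgeR adjusted p = 1.74e-05) in HCC827, and 0.93 in H1975 and 0.58 in HCC2935 on the log2 scale. Its size differed among lines (edgeR F test, adjusted p = 0.00761).

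IGF1R and IGF2R split by line. IGF1R fell in HCC2935, from 2.84, 3.3 and 3.38 to 1.36, 1.63 and 0.636 CPM, a change of -1.36 ± 0.33 (edgeR adjusted p = 0.00301). In H1975 it rose from 4.43, 4.33 and 4.76 to 5.81, 9.77 and 9.19 CPM, by 0.88 on the log2 scale. PC9 and HCC827 did not pass the test (log2 0.29 and -0.003), and the 4 changes differed among lines (edgeR adjusted p = 0.0117). IGF2R was called in 3 lines at 0.58 in HCC827, 0.27 in H1975 and -0.15 in PC9 on the log2 scale. The PC9 call was lost without DMSO replicate 1 (-0.13, edgeR adjusted p = 0.09), DMSO replicate 3 (-0.14, 0.0729), acute replicate 1 (-0.14, 0.0811) or acute replicate 3 (-0.16, 0.0525).

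IRS1 fell in 3 lines. PC9 went from 84.9, 80.3 and 83 to 26.8, 24.2 and 23.1 CPM, a log2 fold change of -1.73 ± 0.20 (edgeR adjusted p = 2.78e-06). The libraries of H1975 went from 122, 91 and 132 to 43.9, 64 and 68.4 CPM and those of HCC2935 from 191, 191 and 193 to 99.5, 103 and 99.6 CPM, by -0.96 and -0.90 on the log2 scale. None of these groups overlapped. In HCC827 the DMSO libraries held 132, 209.7 and 131 CPM and the acute ones 139, 163 and 206 CPM, which overlap (log2 0.09, SE 0.20). The lines differed in this response (edgeR F test, adjusted p = 2.24e-05).

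IGFBP4, a binding protein cut by the protease PAPPA, gave the widest spread of acute responses. It fell in PC9 from 323, 277 and 277 to 39.7, 51.7 and 48.1 CPM, a log2 fold change of -2.64 ± 0.27 (edgeR adjusted p = 1.01e-06). It also fell in HCC827, from 18, 12.4 and 11.3 to 4.73, 4.42 and 3.44 CPM, a log2 fold change of -1.74 ± 0.29 (edgeR adjusted p = 0.000281). In H1975 the fall was from 33, 69.2 and 47.2 to 16, 15.6 and 9.72 CPM, a log2 fold change of -1.84 ± 0.23 (edgeR adjusted p = 1.49e-05). HCC2935 went the other way, from 522, 504 and 438 to 909, 772 and 792 CPM, a rise of 0.79 on the log2 scale with no overlap. The difference among lines passed the test (edgeR adjusted p = 5.5e-10).

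IGFBP3 and IGFBP5 rose in PC9 and H1975. IGFBP3 in PC9 went from 599, 767 and 648 CPM to 2902, 3731 and 3000.4 CPM, a log2 fold change of 2.27 ± 0.24 (4.82-fold, edgeR adjusted p = 1.53e-06). In H1975, where it is scarce, it went from 14.4, 20.9 and 8.79 to 45.2, 32.9 and 29.7 CPM, a log2 fold change of 1.30 ± 0.32 (2.46-fold, edgeR adjusted p = 0.00312). IGFBP3 did not pass the test in HCC827 and HCC2935 (0.24 on the log2 scale in each). IGFBP5, a binding protein that also sticks to the extracellular matrix, went from 23.9, 62.6 and 52.7 to 208, 283 and 138 CPM in PC9, a log2 fold change of 2.18 ± 0.35 (4.54-fold, edgeR adjusted p = 7.12e-05). The H1975 libraries rose from 1.32, 1.79 and 1.02 to 8.51, 7.5 and 10.3 CPM, a log2 fold change of 2.68 ± 0.46 (6.4-fold, edgeR adjusted p = 0.00021). HCC827 and HCC2935 had at most 0.802 and 1.54 CPM of IGFBP5 in any acute library, and their changes (1.94, SE 1.46, and 1.21, SE 1.10, on the log2 scale) did not pass.

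Among the remaining binding proteins, IGFBP6 rose in PC9 (0.66) and H1975 (0.81), and in HCC827 its difference of -0.97 on the log2 scale missed the threshold (edgeR adjusted p = 0.0513) and passed it without DMSO replicate 3 (-1.10, 0.0474). IGFBP2 fell in PC9 (-0.59) and H1975 (-0.56). The H1975 call was lost without DMSO replicate 1 (-0.49, edgeR adjusted p = 0.116), DMSO replicate 3 (-0.41, 0.182), acute replicate 1 (-0.41, 0.159) or acute replicate 3 (-0.61, 0.0619). IGFBP7 rose in H1975 (0.99). For IGFBP7 in HCC2935, same-numbered replicates of the DMSO and acute arms deviated together, and the result depended on how that was used. It stood at 0.63 on the log2 scale (edgeR adjusted p = 0.132) without the replicate block, at 0.63 (edgeR adjusted p = 0.0944) with it, and at 0.58 (edgeR adjusted p = 0.0026) in a blocked fit of those 6 libraries alone. It also passed without DMSO replicate 1 (0.98, edgeR adjusted p = 0.0412) or acute replicate 3 (0.97, 0.0118).

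Persisters after 21 days were compared with DMSO cells next. In PC9, 4 members were higher and 4 lower of 9 tested (35.7% and 33.5% of all genes tested). HCC827 had 5 higher and 0 lower of 10 (23% and 20.4% of all genes). H1975 had 5 higher and 4 lower (26% and 25.7%). HCC2935 had 5 higher and 2 lower (27% and 25.8%). These persister values use the same DMSO libraries as the acute ones. Median log2 fold changes were 0.12, 0.98, 0.35 and 0.66 over the members and 0.06, 0.03, 0.02 and 0.04 over all genes, in the order PC9, HCC827, H1975 and HCC2935.

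**Figure D2:**
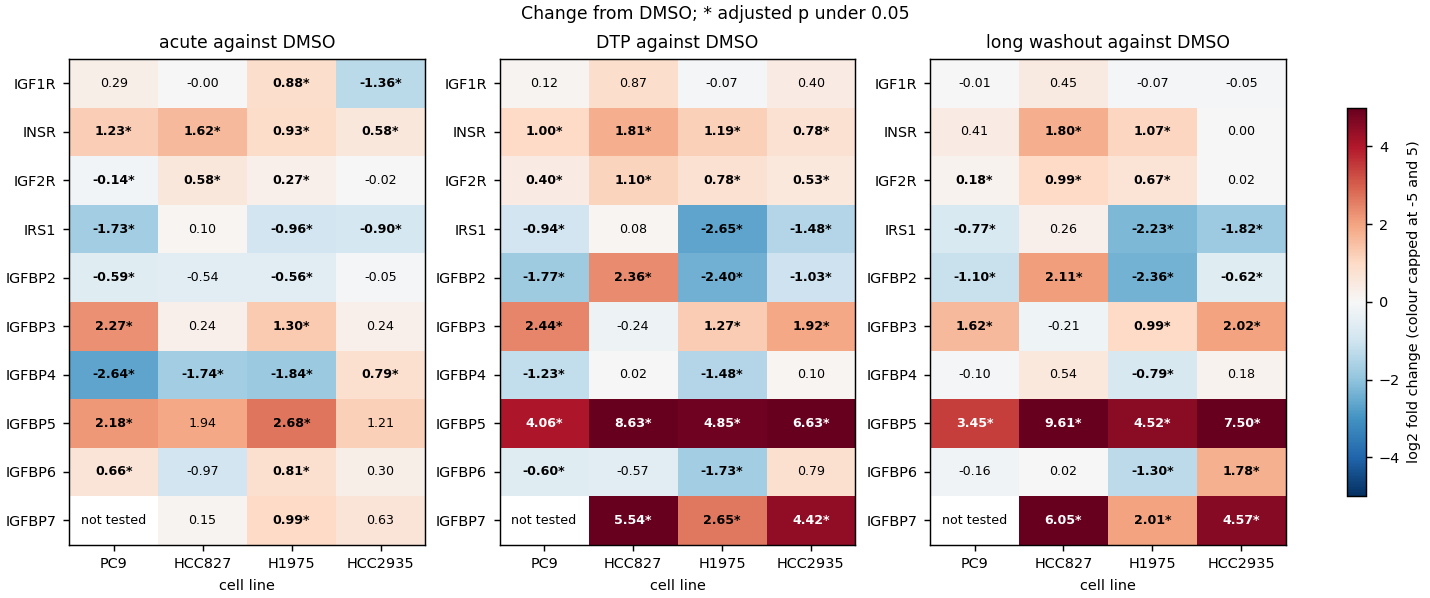
Heat map of log2 fold change against DMSO for each of the 10 genes (rows) in the acute, DTP and long washout arms of each line (columns). A star marks an adjusted p under 0.05, and colours are capped at 5 in either direction. The INSR row is positive in every column, the IGFBP5 row reaches 8.63 in HCC827 persisters, and the IRS1 row is negative except in HCC827.

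INSR was higher in persisters of every line. PC9 persisters had 22, 28.4 and 24.5 CPM, HCC827 persisters 50.8, 45.2 and 41.7 CPM, H1975 persisters 95.4, 81.9 and 77.6 CPM and HCC2935 persisters 33.9, 26 and 26.8 CPM. All of these were above every DMSO library of the same line. The log2 fold changes were 1.81 ± 0.19 (3.5-fold, edgeR adjusted p = 6.43e-06) in HCC827 and 1.19 ± 0.16 (2.29-fold, edgeR adjusted p = 2.61e-05) in H1975, beside 1.00 in PC9 and 0.78 in HCC2935 on the log2 scale, and they differed among lines (edgeR F test, adjusted p = 0.00742).

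IGF2R rose in all 4 lines too, with little spread between replicates. The HCC827 libraries went from 273, 319.6 and 279.7 to 661, 577 and 596 CPM, a log2 fold change of 1.10 ± 0.10 (2.15-fold, edgeR adjusted p = 2.17e-06). H1975 went from 357, 363 and 379 to 623, 625 and 645 CPM. Rises in the other lines were 0.39 in PC9 and 0.53 in HCC2935, and in H1975 0.78, on the log2 scale. No DTP library of any line overlapped its DMSO group, and the sizes differed among lines (edgeR adjusted p = 3.17e-05).

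IGF1R did not pass the test in persisters of any line, with log2 differences of -0.07 to 0.87. Without DTP replicate 2, the HCC827 value was 1.27 and passed (edgeR adjusted p = 0.0488). Its replicates were uneven: HCC827 persisters had 8.8, 3.66 and 18.7 CPM and PC9 persisters 4.01, 4.48 and 10.6 CPM, wider than the DMSO groups. The difference among lines was not called either (edgeR adjusted p = 0.445). Per length, INSR mRNA went from 0.403 to 0.738 times IGF1R in PC9, 0.433 to 0.845 in HCC827, 1.55 to 3.70 in H1975 and 1.01 to 1.31 in HCC2935, as ratios of mean TPM that carry the length limit of IGF1R given above.

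IRS1 was lower in persisters of 3 lines. H1975 persisters had 19.9, 16.5 and 19.2 CPM, a log2 fold change of -2.65 ± 0.21 (edgeR adjusted p = 6.09e-07). HCC2935 persisters had 88.4, 59.8 and 56.8 CPM, a log2 fold change of -1.48 ± 0.13 (edgeR adjusted p = 2.87e-07). PC9 persisters had 44.4, 35 and 47.8 CPM, a difference of -0.94 on the log2 scale. The lowest DMSO library of each of these lines was above the highest DTP library. HCC827 persisters had 149.5, 198 and 141 CPM and overlapped their DMSO group (log2 0.08, SE 0.20), and the lines differed (edgeR F test, adjusted p = 2.48e-09).

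IGFBP5 had the largest rises of the 10 genes. In PC9 it reached 690.2, 681 and 926 CPM, from 23.9 to 62.6 CPM under DMSO, a log2 fold change of 4.06 ± 0.38 (16.7-fold, edgeR adjusted p = 6.38e-07). HCC827 went from 0, 0.0976 and 0.136 to 31.4, 27.1 and 42.7 CPM, a log2 fold change of 8.63 ± 0.84 (396-fold, edgeR adjusted p = 2.94e-06). That fold rests on 5 estimated counts in the 3 DMSO libraries against 2096 in the DTP libraries, a ratio of CPM of 419 with an approximate 95% counting interval of 179 to 1290, and leaving out DMSO replicate 3 moved the log2 fold change to 9.23. With 5 counts under DMSO and 20 in the acute arm, IGFBP5 passed the low-count filter in HCC827 only through the arms where it was high, so a gene kept in this way had to differ there. H1975 went from 1.32, 1.79 and 1.02 to 49.2, 21.8 and 49.7 CPM, a log2 fold change of 4.85 ± 0.47 (28.9-fold, edgeR adjusted p = 2.44e-06). In HCC2935 the DMSO libraries had 0.493, 0.558 and 0.232 CPM (29 counts in all) and the DTP libraries 31.2, 71 and 26.1 CPM, a log2 fold change of 6.63 ± 0.80 (99.3-fold, edgeR adjusted p = 4.87e-06). No DTP library was within the range of its DMSO group, and the lines differed in size (edgeR adjusted p = 0.0109). On the log2(TPM + 1) scale, which shrinks changes of low genes, limma gave IGFBP5 changes of 3.02 in HCC827, 2.83 in H1975 and 3.45 in HCC2935, and IGFBP7 4.16 in HCC827 beside 5.54 in edgeR, all still called.

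IGFBP7 rose in every line in which it was tested. In HCC827 it went from 0.363, 0.781 and 0.454 to 23.8, 23.1 and 26.6 CPM, a log2 fold change of 5.54 ± 0.38 (46.4-fold, edgeR adjusted p = 1.44e-07). The HCC2935 libraries went from 23.7, 17.9 and 7.97 to 356, 348 and 347 CPM, a log2 fold change of 4.42 ± 0.36 (21.4-fold, edgeR adjusted p = 9.4e-08). H1975 rose from 16.6, 12 and 8.62 to 89.7, 70.9 and 74.8 CPM, a log2 fold change of 2.65 ± 0.21 (6.26-fold, edgeR adjusted p = 5.3e-07). In PC9 the gene had 25 counts over all 15 libraries, at most 4 in any, with 5 libraries at 0, so it did not enter that line's test.

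IGFBP5 and IGFBP7 are also made in quantity by fibroblasts, and some fibroblast markers were higher in persisters too. For comparison, 35.7%, 23%, 26% and 27% of all genes tested were higher in persisters than under DMSO in PC9, HCC827, H1975 and HCC2935. The shares lower were 33.5%, 20.4%, 25.7% and 25.8%. Of 7 fibroblast genes (COL1A1, COL1A2, DCN, LUM, PDGFRA, PDGFRB and THY1), 3, 4, 3 and 2 were called higher and 0, 0, 0 and 0 lower in persisters than under DMSO of 4, 6, 5 and 4 tested in PC9, HCC827, H1975 and HCC2935. Their summed level went from 6.25 to 8.44 TPM under DMSO to 14.0 to 18.6 TPM in PC9 persisters, from 6.43 to 9.47 to 24.1 to 56.6 TPM in HCC827, from 24.4 to 60.5 to 42.0 to 117 TPM in H1975 and from 27.1 to 33.6 to 43.9 to 80.5 TPM in HCC2935. COL1A1 gave most of the sum in the 4 lines. LUM reached up to 11.7 TPM in HCC827 libraries, and COL1A2 and PDGFRB reached up to 42.0 and 8.50 TPM in H1975 libraries. The number of the 7 markers at 1 TPM or more went from 1 under DMSO to 3 in persisters in HCC827, from 3 to 4 in H1975 and from 1 to 2 in HCC2935, and was 1 in both in PC9. DCN, PDGFRA and THY1 stayed at or below 1.33, 1.17 and 0.374 TPM in all 60 libraries. The part of this list in the IGFBP5 and IGFBP7 rises was not tested.

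IGFBP3 was higher in persisters of 3 lines. PC9 persisters had 3716, 3561 and 3482 CPM, a log2 fold change of 2.44 ± 0.24 (5.42-fold, edgeR adjusted p = 1.06e-06). HCC2935 went from 249, 242 and 226 to 794, 1070.5 and 824 CPM, a log2 fold change of 1.92 ± 0.15 (3.79-fold, edgeR adjusted p = 5.95e-08). H1975 persisters had 51.8, 23.7 and 31.6 CPM, a log2 fold change of 1.27 ± 0.32 (2.42-fold, edgeR adjusted p = 0.00357). HCC827 was the exception, with 296, 185 and 336 CPM under DMSO and 208, 307 and 164 CPM in persisters, which overlap (log2 -0.24, SE 0.22). The lines differed in this change (edgeR F test, adjusted p = 2.26e-07).

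IGFBP2 moved in opposite directions. It fell in PC9 from 52.9, 53.5 and 52.6 to 16.2, 16.2 and 13.5 CPM, a log2 fold change of -1.77 ± 0.17 (edgeR adjusted p = 8.1e-07). It fell in H1975 from 37, 24.2 and 40.8 to 8.12, 6.08 and 5.26 CPM, a log2 fold change of -2.40 ± 0.23 (edgeR adjusted p = 2.27e-06). In HCC2935 the DTP libraries had 16.1, 22.2 and 27.6 CPM, a log2 fold change of -1.03 ± 0.21 (edgeR adjusted p = 0.000747). HCC827, the line with least IGFBP2 under DMSO, went up from 3.48, 4.59 and 5.63 to 6.97, 31.1 and 30.7 CPM, a log2 fold change of 2.36 ± 0.56 (5.12-fold, edgeR adjusted p = 0.00352). Replicate 1 was the low DTP library there and was low again after the short washout, at 7.81 CPM beside 28.9 and 31.2. The change differed among lines (edgeR F test, adjusted p = 1.02e-09), with a gap of 4.71 on the log2 scale between HCC827 and H1975.

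IGFBP4 and IGFBP6 were lower in PC9 and H1975 persisters and did not pass the test in the other lines. IGFBP4 stood at 136, 100.4 and 131 CPM in PC9 persisters, a log2 fold change of -1.23 ± 0.26 (edgeR adjusted p = 0.000617), and at 18.3, 16.9 and 18.4 CPM in H1975, a log2 fold change of -1.48 ± 0.23 (edgeR adjusted p = 8.43e-05). All 6 of these libraries were below their DMSO groups. IGFBP6 went from 57.1, 44.6 and 54.4 to 18.4, 16.1 and 12.9 CPM in H1975, a log2 fold change of -1.73 ± 0.13 (edgeR adjusted p = 3.42e-07), and fell in PC9 by 0.60 on the log2 scale. In HCC827 and HCC2935 the differences were 0.02 and 0.10 for IGFBP4 and -0.57 and 0.79 for IGFBP6.

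Among lines, the persister change of 9 members differed (edgeR F test over 60 libraries, 63.9% of all genes tested), and the acute change of 7 members did (41.4% of all genes). Changes of IGFBP2, IGFBP5 and IGFBP7 after 24 h were not called as different among lines (edgeR adjusted p = 0.754, 0.786 and 0.388).

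Set against acutely treated cells, persisters address what differs between 21 days and 24 h of drug. PC9 had 4 members higher and 2 lower (16.1% and 17.8% of all genes tested), HCC827 5 and 0 (18% and 11.5%), H1975 3 and 4 (18.3% and 18.9%), and HCC2935 5 and 3 (22.8% and 21.9%). INSR passed the test in no line, at -0.23 to 0.26 on the log2 scale. IGF2R was higher in persisters in 4 of 4 lines, at 0.51 to 0.55 on the log2 scale. IGFBP5 was higher in all 4, by 1.88 ± 0.34 (3.68-fold, edgeR adjusted p = 0.000838) in PC9, 2.18 ± 0.40 (4.52-fold, edgeR adjusted p = 0.000986) in H1975, 5.43 ± 0.72 (43-fold, edgeR adjusted p = 1.8e-05) in HCC2935 and 6.69 ± 0.70 (103-fold, edgeR adjusted p = 1.66e-05) in HCC827. The HCC827 value rose to 8.66 without acute replicate 3, whose 0.802 CPM stood beside 0.111 and 0.0475. It rests on 20 counts in the acute arm and carries the filter limit given above.

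Other members took separate courses between 24 h and 21 days. IGFBP7 was higher in persisters by 5.39 ± 0.38 (41.9-fold, edgeR adjusted p = 6.61e-07) in HCC827, 3.78 ± 0.35 (13.8-fold, edgeR adjusted p = 4.54e-07) in HCC2935 and 1.65 ± 0.20 (3.14-fold, edgeR adjusted p = 4.93e-05) in H1975. IGFBP4 was higher in persisters than in acute cells in PC9 and HCC827, by 1.41 ± 0.26 (2.65-fold, edgeR adjusted p = 0.000852) and 1.77 ± 0.29 (3.4-fold, edgeR adjusted p = 0.000485), and lower in HCC2935 by 0.69 on the log2 scale. IGFBP6 was above DMSO at 24 h and below it in persisters in PC9 and H1975, and the step between them was -1.26 ± 0.10 (edgeR adjusted p = 1.42e-06) and -2.54 ± 0.13 (edgeR adjusted p = 5.84e-08). IRS1 was higher in persisters than in acute cells in PC9 (0.79) and lower in H1975 and HCC2935 (-1.69 and -0.58), and IGF1R was higher in HCC2935 (1.76) and lower in H1975 (-0.95). IGFBP2 was higher in HCC827 (2.90) and lower in PC9, H1975 and HCC2935 (-1.19, -1.84 and -0.98). IGFBP3 was higher in HCC2935 (1.68) and not called in the other lines, although HCC827 passed without DTP replicate 2 (-0.77, edgeR adjusted p = 0.0182). IGFBP6 in HCC2935 passed without acute replicate 1 (1.19, edgeR adjusted p = 0.0238).

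The washout arms ask whether the persister levels go back once the drug is gone. After 24 h without drug, 0 of 9 or 10 members tested were called in any line by edgeR, and 1 in PC9 and 0 in the other lines had an unadjusted p under 0.05. DESeq2 also called 0, with 2, 1, 0 and 1 members at an unadjusted p under 0.05 in PC9, HCC827, H1975 and HCC2935. Over all genes tested the shares higher and lower were 3.87% and 2.05% in PC9, 0% and 0% in HCC827, 0.0585% and 0% in H1975 and 2.32% and 0.816% in HCC2935. Among lines, the short washout change of 0 members differed, by edgeR over 60 libraries and also at an unadjusted p under 0.05 (0.0121% of all genes were called). IGFBP5 after 24 h was still at 644, 512 and 471 CPM in PC9 and 24.8, 22.3 and 61.9 CPM in HCC827, and INSR at 40.8, 39.4 and 39.3 CPM in HCC827.

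In HCC827 and H1975, same-numbered replicates of the DTP and short washout arms deviated together. With the replicate block in the 15-library fit, 0 members were called in either. In a blocked fit of only the 6 libraries of those arms, 3 members were called in H1975, IGFBP3 at -0.34 (edgeR adjusted p = 0.0389), IGFBP4 at 0.41 (0.0227) and IGFBP5 at -0.43 (0.026) on the log2 scale, and 0 in HCC827. That fit called 1697 genes in H1975, against 56 with the block and 9 without it in the 15-library fits. A fit of only the 6 libraries of PC9, without the block, called IGFBP3 (-0.43), IGFBP4 (0.49), IGFBP5 (-0.51) and INSR (-0.50).

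Between the long washout and persisters, members were called in 2 of the 4 lines. In PC9 after 7 days, 3 members were higher and 3 lower than in persisters (20.4% and 16.8% of all genes tested). In HCC2935 after 10 days, 0 were higher and 2 lower (6.82% and 4.94%). In HCC827 after 4 days 0 of 10 members were called by edgeR or DESeq2, and 0 had an unadjusted p under 0.05, where 0% and 0% of all genes were called. In H1975 after 3 days 0 of 10 were called by both tools, with 3 at an unadjusted p under 0.05 in each (0% and 0.0065% of all genes). The 10 proliferation genes were all higher than in persisters in PC9 and HCC2935, and 0 were called in HCC827 and H1975, also at an unadjusted p under 0.05.

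INSR fell on long washout in PC9 (-0.59) and HCC2935 (-0.78), and IGF2R fell in the same lines (-0.22 and -0.51, log2 scale). The HCC2935 libraries had 20.2, 13.7 and 16.8 CPM of INSR, beside 16.4, 15.1 and 19.5 under DMSO. Levels overlapped there, while the HCC827 libraries stayed at 40.1, 48 and 48.3 CPM. In PC9, IGFBP4 rose by 1.13 ± 0.26 (2.19-fold, edgeR adjusted p = 0.00434), IGFBP2 by 0.67 and IGFBP6 by 0.44, and IGFBP3 fell by 0.82 on the log2 scale. The third PC9 replicate stood apart: IGFBP4 was 289, 387 and 138 CPM and IGFBP3 1699, 1274 and 3166 CPM, and its values were close to those of persisters. Without that library, IRS1 in PC9 also passed (0.43, edgeR adjusted p = 0.0224).

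Several of these long washout calls rest on single libraries. The INSR call in PC9 was lost with the replicate block (edgeR adjusted p = 0.0553), and without DTP replicate 2 (-0.48, edgeR adjusted p = 0.135), DTP replicate 3 (-0.58, 0.0899), long washout replicate 1 (-0.52, 0.125) or long washout replicate 2 (-0.47, 0.155). IGFBP3 in PC9 was lost without long washout replicate 1 (-0.70, edgeR adjusted p = 0.0647) or 2 (-0.57, 0.0517). IGF2R was lost in PC9 without DTP replicate 3 (-0.17, edgeR adjusted p = 0.062) and in HCC2935 without long washout replicate 3 (-0.41, 0.0565). In HCC2935, IRS1 passed without DTP replicate 3 (-0.46, edgeR adjusted p = 0.0406) and IGFBP6 without long washout replicate 1 (1.25, 0.0461).

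**Figure D3:**
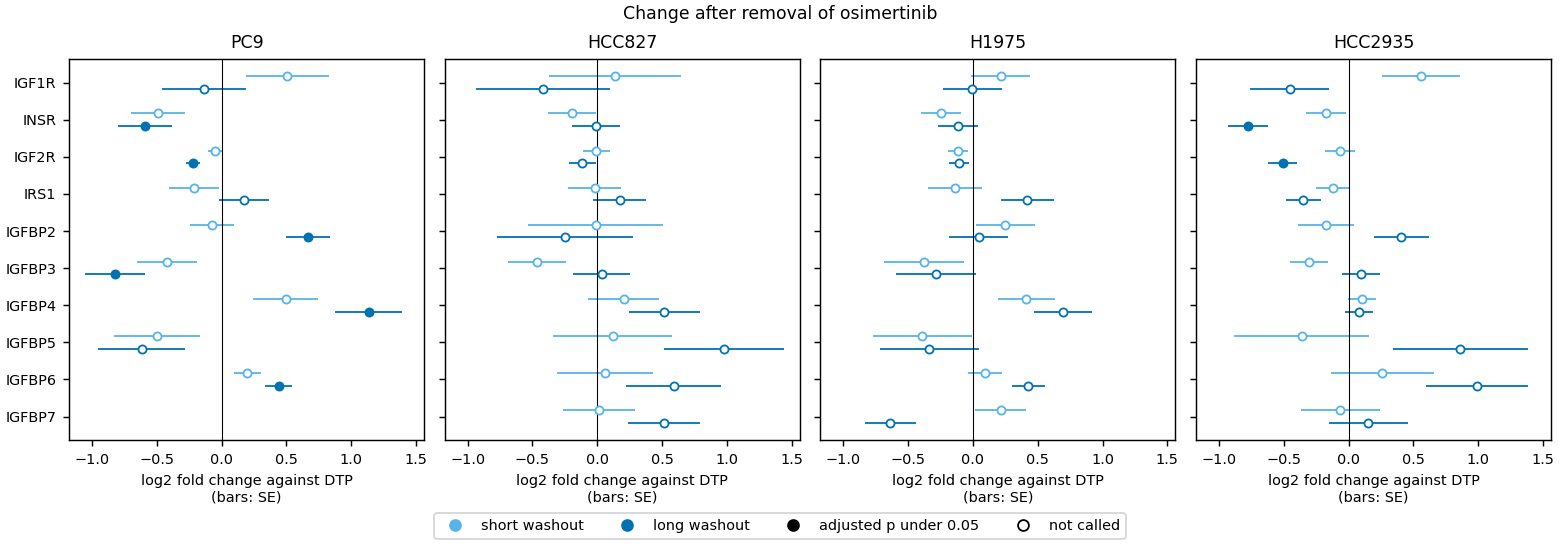
Log2 fold change against persisters (horizontal axis) after the short and the long washout, for each gene and line, with bars of 1 SE and filled points for an adjusted p under 0.05. All short washout points are open, and the filled long washout points are 6 in PC9 and 2 in HCC2935.

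Against DMSO, 25 of 39 tests of a member in a line were called after the long washout. PC9 had 3 higher and 2 lower (23.4% and 21.5% of all genes tested), HCC827 5 and 0 (21.9% and 20%), H1975 5 and 4 (27.3% and 26%), and HCC2935 4 and 2 (22.5% and 20.8%). IGFBP5 was higher in all 4 lines, with 625, 298 and 586 CPM in PC9, 47.8, 39 and 113 in HCC827, 23.2, 49 and 22.6 in H1975 and 159, 41.7 and 32.3 in HCC2935. Every one of these libraries was above the DMSO range. The log2 fold changes were 3.45 ± 0.37 (10.9-fold, edgeR adjusted p = 1.2e-05) in PC9 and 4.52 ± 0.47 (22.9-fold, edgeR adjusted p = 3.45e-06) in H1975. In HCC827 it was 9.61 ± 0.84 (780.0-fold, edgeR adjusted p = 1.27e-06), which moved to 10.21 without DMSO replicate 3 and to 8.99 without long washout replicate 3. That fold rests on 5 counts under DMSO against 3798, a ratio of CPM of 825 with an approximate 95% counting interval of 353 to 2540. It also carries the filter limit given above. In HCC2935 the log2 fold change was 7.50 ± 0.81 (181-fold, edgeR adjusted p = 2.47e-06), and 6.42 without long washout replicate 1.

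IGFBP7 remained above DMSO in its 3 tested lines after the long washout, at 6.05 ± 0.39 (66.2-fold, edgeR adjusted p = 9.93e-08) in HCC827, 4.57 ± 0.36 (23.7-fold, edgeR adjusted p = 1.06e-07) in HCC2935 and 2.01 ± 0.21 (4.02-fold, edgeR adjusted p = 3.25e-06) in H1975. IRS1 was still lower in PC9 (-0.77), H1975 (-2.23) and HCC2935 (-1.82). INSR was still higher in HCC827 (1.80) and H1975 (1.07) and did not pass in PC9 and HCC2935 (0.41 and 0.00). IGFBP6 was called higher in HCC2935, at 5.2, 11.5 and 8.83 CPM beside 3.25, 2.7 and 1.53 under DMSO, a log2 fold change of 1.78 ± 0.41 (3.44-fold, edgeR adjusted p = 0.0024). IGFBP3 was higher in PC9, H1975 and HCC2935 (1.62, 0.99 and 2.02) and IGFBP2 in HCC827 (2.11), all on the log2 scale.

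Single libraries decided some of the smaller differences between long washout and DMSO. IGFBP3 in H1975 was lost without DMSO replicate 3 (0.72, edgeR adjusted p = 0.0777) or long washout replicate 3 (0.89, 0.052). IGFBP2 in HCC2935, at -0.62, was lost without DMSO replicate 1 (-0.60, edgeR adjusted p = 0.0624), DMSO replicate 2 (-0.49, 0.11) or long washout replicate 2 (-0.45, 0.0978). The IGF2R call in PC9, at 0.18, was lost without DMSO replicate 2 (0.15, edgeR adjusted p = 0.0739). INSR in PC9 passed without DMSO replicate 2 (0.69, edgeR adjusted p = 0.0148), IGFBP6 in PC9 without long washout replicate 2 (-0.26, 0.0408) and IGFBP4 in HCC827 without long washout replicate 2 (0.78, 0.0353).

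Per length, the mix of the 6 binding protein mRNAs changed as well as the amount. In PC9, IGFBP3 made up 49.5% of their summed TPM under DMSO and 85.7% in persisters, and the sum was 3.73 times that of DMSO. In HCC2935 the largest share passed from IGFBP4 (57.3% under DMSO) to IGFBP3 (42.0%) and IGFBP7 (29.8%) in persisters, with 2.76 times the sum. H1975 passed from IGFBP6 (51.7%) to IGFBP7 (51.8%) while the sum was 0.824 times that of DMSO. HCC827 kept IGFBP3 as the largest share (73.0% and 57.6%) with 1.10 times the sum, and IGFBP2 and IGFBP7 took 11.6% and 11.7%. IGFBP5, despite its folds, held at most 6.54% of the sum in any group.

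**Figure D4:**
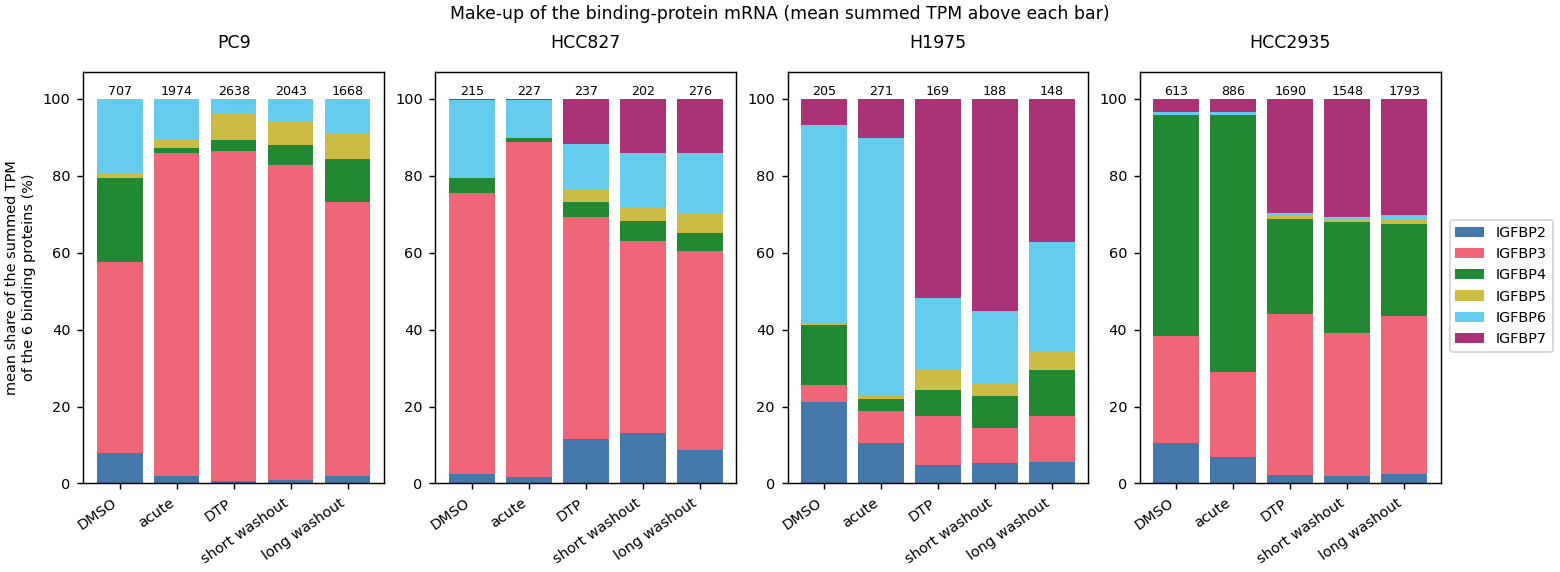
Mean share of each binding protein in the summed TPM of IGFBP2 to IGFBP7 (percent, stacked bars) by line and arm, with the mean summed TPM above each bar. PC9 goes from 707 TPM under DMSO to 2638 TPM in persisters with IGFBP3 at 85.7%, and in H1975 the IGFBP7 share goes from 6.85% to 51.8%.

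A wider list of 42 genes of the pathway, chosen with earlier results of these data known, was read beside the members. It held ligands, other binding proteins, proteases and their inhibitors, adaptors, phosphatases, PI3K and AKT subunits and isoforms, FOXO factors, IGF2 mRNA-binding proteins and the insulin-degrading enzyme IDE, of which 37, 39, 38 and 38 were tested in PC9, HCC827, H1975 and HCC2935. In the acute arm 10, 8, 10 and 9 were higher than DMSO, where 34.5%, 18.7%, 27.8% and 24.9% of all genes tested were, and 15, 6, 6 and 8 were lower (31.7%, 20.2%, 23.8% and 22.2% of all genes). In persisters 12, 19, 14 and 11 were higher (35.7%, 23%, 26% and 27% of all genes) and 16, 9, 6 and 9 lower (33.5%, 20.4%, 25.7% and 25.8%) than DMSO. The medians in persisters were -0.10, 0.49, 0.11 and 0.11 on the log2 scale, beside 0.06, 0.03, 0.02 and 0.04 over all genes. Against persisters, 3 were higher in PC9 after the short washout, 1 was lower in HCC2935 and 0 were called in the other lines. The shares of all genes tested higher and lower were 3.87% and 2.05% in PC9 and 2.32% and 0.816% in HCC2935. They were 0% and 0% in HCC827 and 0.0585% and 0% in H1975. After the long washout 6 were higher and 8 lower in PC9 (20.4% and 16.8% of all genes). HCC2935 had 1 and 3 (6.82% and 4.94%). HCC827 had 0 (0% and 0%) and H1975 0 (0% and 0.0065%).

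Of the FOXO factors, FOXO3 was called higher in the acute arm of 4 of 4 lines and FOXO1 in 1. FOXO4 also rose in the acute arm of every line. Its mean level went from 7.51 to 42.6 CPM in PC9, from 10.4 to 35.2 in HCC827, from 6.46 to 22.8 in H1975 and from 0.899 to 9.03 in HCC2935, by 2.51, 1.74, 1.83 and 3.37 on the log2 scale (edgeR adjusted p of 0.00239 or lower). No acute library overlapped its DMSO group for this gene.

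IGF1 mRNA was scarce under DMSO, as was IGF2 mRNA in HCC827. IGF1 was called higher in persisters in 3 lines, at a mean of 3.16 CPM in PC9, 5.28 in HCC827 and 17.4 in HCC2935, from 0.276, 0.654 and 1.29 CPM under DMSO. Its libraries spread widely, from 0.694 to 11.2 CPM among HCC827 persisters and from 6.41 to 28.9 among those of HCC2935. In H1975 the means were 0.322 and 0.234 CPM and the test was not passed. IGF2 was called higher in persisters of 2 lines, HCC827 and HCC2935. In HCC827 it rose from a mean of 0.756 to 6.21 CPM (log2 3.06, SE 0.45, edgeR adjusted p = 8.99e-05).

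Of the binding protein proteases and their inhibitors, 2 were higher and 2 lower of 4 tested in PC9 persisters, 4 and 1 of 5 in HCC827, 4 and 0 of 5 in H1975 and 3 and 0 of 5 in HCC2935. Of all genes tested, 35.7%, 23%, 26% and 27% were higher and 33.5%, 20.4%, 25.7% and 25.8% lower, in the same order of lines. HTRA1, a secreted serine protease, was higher in persisters of all 4 lines, from means of 1.56 to 13.2 CPM in PC9, 0.629 to 23.1 in HCC827, 25.8 to 64.3 in H1975 and 10.4 to 68.6 in HCC2935. PAPPA, the protease of IGFBP4, fell in PC9 persisters (-2.42 on the log2 scale), rose in HCC827 (2.34) and H1975 (2.26) and did not pass in HCC2935 (0.40). PAPPA2 rose in the 3 lines where it could be tested, HCC827 (2.48), H1975 (3.73) and HCC2935 (3.39, log2 scale). STC1, an inhibitor of PAPPA, rose in PC9 (3.90) and HCC2935 (4.12, from 0.132 to 2.38 CPM), fell in HCC827 (-1.70) and did not pass in H1975 (0.10). At 0.132 CPM under DMSO, STC1 in HCC2935 passed the low-count filter through other arms. Its rise there carries the limit given for IGFBP5 in HCC827. Of the adaptors, GRB14, which binds and restrains the active insulin receptor, was lower in persisters in 4 of 4 lines, with falls of 1.59 in PC9 and 1.31 in H1975 on the log2 scale. AKT1, a kinase downstream of PI3K, was lower in persisters of PC9 (-0.55), H1975 (-0.62) and HCC2935 (-0.70) and higher in those of HCC827 (0.59), on the log2 scale.

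Genes with the pattern most like each member were sought over the 20 group means of log2 CPM after the mean of each line was removed, a description in which the groups of a line share their libraries' source and line. For INSR these were RNASEK, TMEM178A and TTLL1 (Pearson r 0.936, 0.935 and 0.914). For IGF2R they were ARSG, TMEM170B and GPC4 (0.947, 0.936 and 0.927). IGF1R had the weakest likenesses, with DKK1, SUSD1 and OLFM1 (0.840, 0.836 and 0.824). IRS1 was nearest to PPP4R3A, UGT8 and PLXNA4 (0.944, 0.917 and 0.910).

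Among the binding proteins, IGFBP5 and IGFBP7 had the same nearest gene, MATN2 (r 0.966 and 0.972), followed by ACKR3 and P3H1 (0.963 and 0.957) for IGFBP5 and by ANTXR1 and TUB (0.967 and 0.964) for IGFBP7. IGFBP3 was nearest to WNT10A, TMPRSS3 and SH3BGRL (0.952, 0.932 and 0.923), and IGFBP2 to VGF, COL6A3 and EMP2 (0.906, 0.899 and 0.896). IGFBP6 had PIR, NME7 and SERPINB5 (0.905, 0.877 and 0.874), and IGFBP4 had VKORC1L1, XPO6 and TADA1 (0.877, 0.865 and 0.858).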

How the data were processed

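Per the labels, RNA of 4 cell lines was made into poly(A) TruSeq libraries and read as paired ends on a HiSeq4000. The submitters' processing notes name HISAT2 2.1.0, Salmon 0.8.2 and hg38; roles, strand and annotation release are not given in the sources used here. The authors deposited estimated counts per gene and, as a second table, log2 TPM with an offset of 0.01. The ratio of deposited count to TPM was 1 constant per gene and per library in 100% of 728520 values checked (tolerance 0.01 in log2), so the counts were TPM scaled by length and library, both tables carry 1 measurement, and counting intervals are approximate and cover counting error only. TPM summed to 806000 to 891000 per library over the 19712 genes.

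Estimated counts were rounded, filtered with filterByExpr and fitted by line (15 libraries, group means) with edgeR 4.0.16 quasi-likelihood F tests after TMM scaling in R 4.3.3, with Benjamini-Hochberg adjustment over the 14866, 14665, 15379 and 14946 genes tested in PC9, HCC827, H1975 and HCC2935. A fit of all 60 libraries tested differences among lines. Members with a called log2 fold change of at least 1 are given with statistics, and the 3 largest rises and falls of pathway genes per comparison could be named. The members and lists were chosen with earlier results of these data known. Alternatives were DESeq2 1.42.0, limma 3.58.1 on log2 TPM, other scalings and filters, and leaving out each replicate. Scripts were tested on simulated data.

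Whether replicate numbers pair samples was checked by correlating deviations from group means. All 3 correlations were over 0.1 for HCC827 short washout and DTP (0.729, 0.455 and 0.571), H1975 short washout and DTP (0.313, 0.657 and 0.591) and HCC2935 acute and DMSO (0.236, 0.16 and 0.408). The labels say biological triplicates and do not say what a number shares. Promoter windows came from RefSeq on GRCh38.p14.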

Additional observations from a re-analysis of the deposited data

Results flagged for a closer look

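The response of a member to drug differed among the 4 lines in 16 of the 20 tests made on the acute and DTP arms (edgeR F test over 60 libraries, adjusted over all genes), beside 41.4% of all genes in the acute arm and 63.9% in persisters. Values are log2 fold changes against DMSO in the fit of 60 libraries, which differ slightly from those of the fits by line, and each gap is the highest line minus the lowest.

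In the acute arm the gap was 2.27 for IGF1R, between H1975 (0.87) and HCC2935 (-1.40), with an edgeR adjusted p of 0.0117. It was 1.10 for INSR, between HCC827 (1.64) and HCC2935 (0.55), and 0.75 for IGF2R, between HCC827 (0.60) and PC9 (-0.16), with edgeR adjusted p of 0.00761 and 1.5e-05. IRS1 had a gap of 1.85 between HCC827 (0.11) and PC9 (-1.74), edgeR adjusted p = 2.24e-05. IGFBP3 had one of 2.05 between PC9 (2.26) and HCC2935 (0.21), edgeR adjusted p = 1.86e-05. The widest acute gap was 3.41, for IGFBP4 between HCC2935 (0.76) and PC9 (-2.65), edgeR adjusted p = 5.5e-10, and IGFBP6 had 1.76 between H1975 (0.80) and HCC827 (-0.96), edgeR adjusted p = 0.0015.

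In persisters the gap was 1.02 for INSR, between HCC827 (1.78) and HCC2935 (0.77), and 0.70 for IGF2R, between HCC827 (1.07) and PC9 (0.37), with edgeR adjusted p of 0.00742 and 3.17e-05. IRS1 had 2.68 between HCC827 (0.05) and H1975 (-2.63), edgeR adjusted p = 2.48e-09. Among the binding proteins it was 4.71 for IGFBP2 between HCC827 (2.32) and H1975 (-2.39), 2.68 for IGFBP3 between PC9 (2.42) and HCC827 (-0.27) and 1.56 for IGFBP4 between HCC2935 (0.08) and H1975 (-1.48), with edgeR adjusted p of 1.02e-09, 2.26e-07 and 4.19e-05. IGFBP5 had 4.59 between HCC827 (8.64) and PC9 (4.04), edgeR adjusted p = 0.0109, and the HCC827 value rests on 5 counts under DMSO. IGFBP6 had 2.49 between HCC2935 (0.77) and H1975 (-1.72), edgeR adjusted p = 8.79e-05. IGFBP7 had 5.80 between HCC827 (5.51) and PC9 (-0.29), edgeR adjusted p = 5.63e-06, where the PC9 value rests on at most 4 counts in any library and is no measure of a change.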

How the results depend on the processing

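Of 4426 recomputed member values, 4321 (97.6%) kept their direction and side of the threshold, 70 lost a call, 35 gained one and 0 reversed. Limma on log2(TPM + 1) made the folds of low genes smaller, and between DTP and DMSO IGFBP5 went from 8.63 to 3.02 in HCC827, from 4.85 to 2.83 in H1975 and from 6.63 to 3.45 in HCC2935, and IGFBP7 from 5.54 to 4.16 in HCC827, with direction and call kept, and between long washout and DMSO IGFBP5 in HCC827 went from 9.61 to 3.81. The planned replicate block in the 15-library fits kept 232 of 234 values, and the 2 it lost were INSR in PC9 between long washout and DTP and IGFBP2 in H1975 between acute and DMSO (edgeR adjusted p = 0.0675); all other calls were kept. Called values lost under 3 or more settings other than leaving out a library were IGFBP2 in H1975 and IGF2R in PC9 and H1975 (acute), INSR, IGFBP3 and IGF2R in PC9 (long washout against DTP), and IGFBP2 in HCC2935 and IGF2R in PC9 (long washout against DMSO). For the members, fits of only the arms compared called 4 in the short washout comparison, or 5 with the replicate block, against 0, and 3 or, with the block, 1 against 8 for long washout and DTP. For the 42 pathway genes these fits gave 11 and, with the replicate block, 15 against 4 in the short washout comparison, and 9 and 8 against 18 for long washout and DTP; such fits hold 6 libraries. In the short washout comparison the replicate block in 15 libraries gave 2 and DESeq2 8. An adjusted p under 0.01 left 41 of 69 pathway calls between DTP and acute, 11 of 18 for long washout and DTP and 0 of 4 for short washout. Leaving out 1 library gave 24 to 26 member calls for acute against DMSO, 29 to 30 for DTP against DMSO, 26 to 27 for DTP against acute, 0 for short washout, 6 to 9 for long washout against DTP and 24 to 26 for long washout against DMSO, and 67 to 74, 92 to 97, 59 to 74, 1 to 6, 14 to 26 and 79 to 88 pathway calls. Members that differed among lines numbered 6 to 7 (acute), 8 to 9 (DTP), 0 (short washout) and 9 to 10 (DMSO). Depth limits IGFBP5 in HCC827 and HCC2935 and IGFBP7 in PC9, which had few counts under DMSO.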
